A study of Rattus norvegicus with 10 samples.

Results

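Voltage-gated potassium (Kv) channel genes were followed in the prefrontal cortex of adult rats that had gone through early life stress (ELS) and of control rats. The description covers Kcnq3 and Kcnq5 of the Kv7 subfamily and Kcna1, Kcna2, Kcnc1, Kcnc2 and Kcnd3 of the Kv1, Kv3 and Kv4 subfamilies. They are the 7 of 8 named genes whose trimmed symbol was found among the 16041 rows of the deposited table, and the other named gene, Kcnd2, is not analysed here. The genes were chosen by their ELS and control RPKM values in these libraries. Their group differences are therefore given as a description without a test. All 7 passed the filter on low values that was set for the transcriptome-wide fit.

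All rats were male Sprague-Dawley rats, and tissue was taken at postnatal day 91. The 5 ELS libraries came from rats raised under limited nesting, a shortage of nest material for dam and pups, from postnatal day 2 to 9. The 5 control libraries came from rats labelled as controls of the same strain, sex and age. The comparison asks which transcripts differed in adult cortex long after the stress. The labels do not say whether rats shared a litter, so the errors given measure the spread between these tissue samples. ELS libraries held 18838898 to 20998749 reads and control libraries 19676642 to 22311136 reads. Levels are RPKM, reads scaled by gene model length and library total, and differences are log2 fold changes of ELS over control on the log2(RPKM + 0.1) scale, with the standard error (SE) of the limma fit. In whole tissue, fewer cells of a type and less RNA per cell cannot be told apart.

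Kv channels open on depolarisation and bring the membrane back toward rest. Kv7 subunits carry the M-current, a slow current that does not inactivate, restrains repetitive firing and is shut down when Gq-coupled muscarinic receptors deplete the membrane lipid PIP2. Kv1 subunits sit in axons and set the firing threshold, Kv3 subunits repolarise fast-spiking neurons within a brief spike, and Kv4 subunits carry the transient A-type current of dendrites.

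A library of each group stood apart from the others in these genes. ELS replicate 2 had levels of Kcnq3 and Kcna2 in the control range, and control replicate 4 had the lowest level of Kcna2 and Kcnc2 in its group. Results that rest on either are given with and without it. These 2 libraries were singled out by their values in these same data. Counts and adjusted p values without them are therefore a description and not a test. The labelled tissue was checked against its markers. All 10 excitatory cortical neuron markers were above 0 in every library, and their summed level was 2081 to 2408 RPKM in ELS and 1911 to 2162 RPKM in control libraries. The 8 markers of striatal projection neurons, which a cortical dissection can include, summed to 102.6 to 114.7 RPKM in ELS and 57.5 to 202.7 RPKM in control libraries. The highest sum was that of control replicate 1 and the lowest that of control replicate 4. Control replicate 1 was the highest library in all 8, with Drd2 at 4.38 RPKM against 0.538 to 1.28 RPKM in the other libraries. Astrocyte markers summed to 1093 to 1225 RPKM in ELS and 1254 to 1494 RPKM in control libraries, with 8 of 8 lower in mean in ELS, and so were 8 of 8 microglial and 7 of 7 oligodendrocyte precursor markers, none of them at 0. Erythrocyte markers were lower in mean in 4 of 4 rows, with a median log2 fold change of -1.07 and sums of 213.8 to 438.0 RPKM in ELS and 411.5 to 981.0 RPKM in control libraries. Thalamic neuron markers were lower in 4 of 5, with a median of -0.35 and sums of 12.5 to 15.4 RPKM in ELS and 15.9 to 23.9 RPKM in control libraries. The part of these markers in the channel values was not tested. In all, 0 genes passed an adjusted p of 0.05 by limma or limma-voom, and 20.4% of the 14642 genes tested had an unadjusted p under 0.05 by limma. Without ELS replicate 2 the adjusted count was 444 genes.

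The 6 genes other than Kcnq3 were among the more abundant transcripts of the table, with mean levels at the 62.2 to 83.7 percentile of the 14642 genes tested, while Kcnq3 lay at the 45.8 percentile. In ELS libraries the order of mean levels ran from Kcnq5 at 28.4 ± 1.63 RPKM through Kcnc2 (26.9 ± 0.851), Kcnc1 (23.3 ± 2.204), Kcna2 (20.9 ± 3.67), Kcna1 (16.0 ± 2.23) and Kcnd3 (10.7 ± 0.855) to Kcnq3 at 3.78 ± 3.60 RPKM (SD, n = 5). In control libraries Kcna2 came first at 24.5 ± 4.88 RPKM, ahead of Kcnq5 (23.7 ± 1.006), Kcnc2 (21.5 ± 5.38), Kcnc1 (19.8 ± 2.39), Kcna1 (19.3 ± 3.91), Kcnd3 (11.1 ± 0.398) and Kcnq3 (8.67 ± 1.97 RPKM; SD, n = 5). In both groups the ranges of all neighbours in this order overlapped, except that Kcna1 and Kcnd3 lay apart. Kcnq5 and Kcnd3 were the steadiest genes in control libraries, with a coefficient of variation of 4.25% and 3.58%. Kcnq3 varied by 95.5% of its mean within ELS, against 22.7% within controls.

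**Figure D1:**
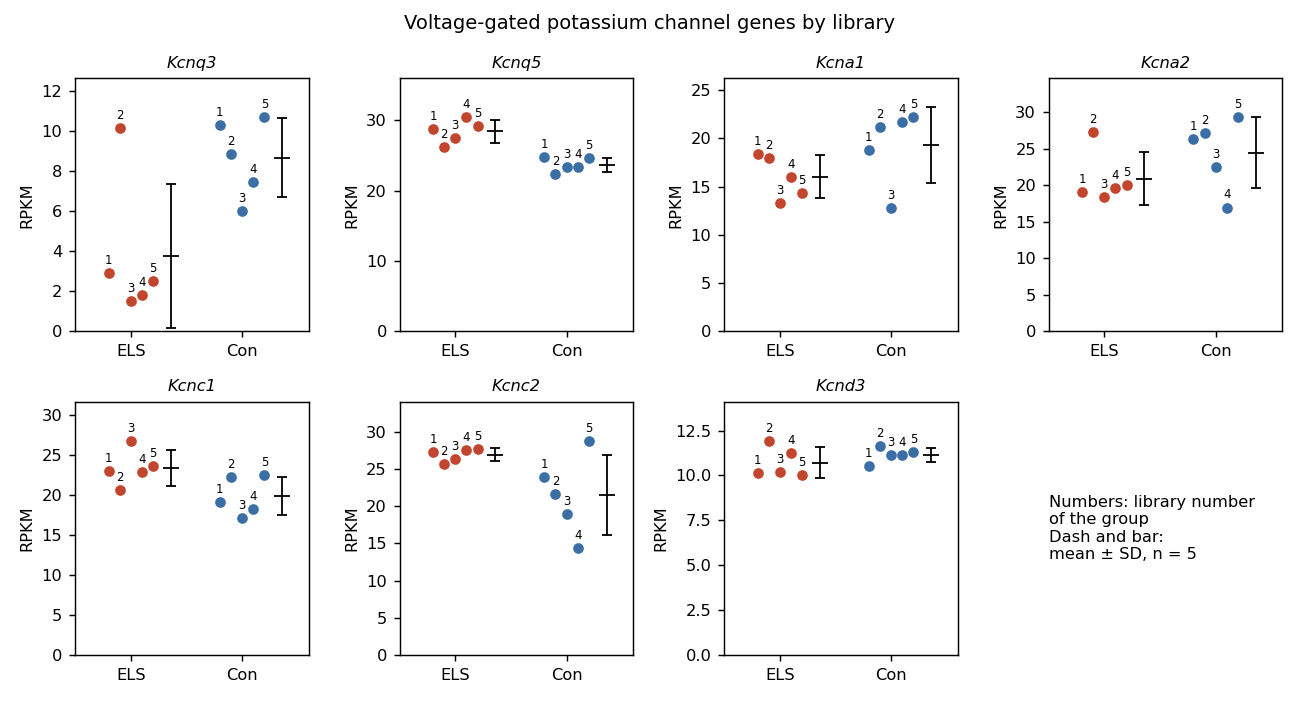
Level in RPKM (vertical axes, each starting at 0) of the 7 channel genes in each of the 5 ELS and 5 control (Con) libraries; points are libraries with their number, dashes and bars are mean ± SD. Kcnq5 lies above every control library in all ELS libraries, and Kcnq3 lies below every control library in all ELS libraries but replicate 2, which is at 10.1 RPKM.

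Start-site sequences are shown for 4 of the genes so that their composition can be read beside the levels: Kcnq5, Kcnc1 and Kcnc2, whose means were higher in ELS, and Kcna2, whose mean was lower. RefSeq windows of 300 bases, 250 before and 50 after an annotated start, on build GRCr8, were matched by symbol for 5 of the 7 genes, with 2 windows for Kcnc2. The expression values rest on another build, rn6. Capitals mark the GC box, GGGCGG on either strand, the letters bound by Sp-family factors. The windows are chr9:31891232-31891531 (minus strand) for Kcnq5, chr1:106038997-106039296 (plus) for Kcnc1, chr2:197393280-197393579 (plus) for Kcna2 and chr7:49587364-49587663 (plus) for the upstream window of Kcnc2.
Kcnq5: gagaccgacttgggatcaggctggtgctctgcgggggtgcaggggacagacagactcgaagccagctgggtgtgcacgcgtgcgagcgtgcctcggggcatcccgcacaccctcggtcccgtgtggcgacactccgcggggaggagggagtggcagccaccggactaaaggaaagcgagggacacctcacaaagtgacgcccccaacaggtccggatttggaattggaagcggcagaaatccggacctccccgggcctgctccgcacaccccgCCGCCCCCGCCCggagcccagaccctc
Kcnc1: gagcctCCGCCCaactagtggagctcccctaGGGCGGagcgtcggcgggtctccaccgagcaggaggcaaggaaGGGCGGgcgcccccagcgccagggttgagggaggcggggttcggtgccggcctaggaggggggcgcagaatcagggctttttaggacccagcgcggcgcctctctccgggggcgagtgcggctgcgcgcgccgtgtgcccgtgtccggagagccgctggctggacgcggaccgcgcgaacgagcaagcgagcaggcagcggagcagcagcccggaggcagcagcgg
Kcna2: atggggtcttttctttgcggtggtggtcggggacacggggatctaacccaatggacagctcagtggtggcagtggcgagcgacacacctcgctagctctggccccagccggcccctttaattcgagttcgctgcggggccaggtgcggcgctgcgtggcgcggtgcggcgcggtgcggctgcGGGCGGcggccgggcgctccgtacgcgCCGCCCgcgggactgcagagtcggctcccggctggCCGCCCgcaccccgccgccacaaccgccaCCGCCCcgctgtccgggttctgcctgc
Kcnc2: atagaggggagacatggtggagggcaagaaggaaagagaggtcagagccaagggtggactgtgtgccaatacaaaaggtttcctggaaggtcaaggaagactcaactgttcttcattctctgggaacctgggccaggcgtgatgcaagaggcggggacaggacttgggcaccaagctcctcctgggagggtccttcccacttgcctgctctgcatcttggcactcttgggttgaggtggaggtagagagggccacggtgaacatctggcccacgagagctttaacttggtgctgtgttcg

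The GC box occurred 2 times in the Kcnq5 window, 3 times in the Kcnc1 window, 4 times in the Kcna2 window and 1 time in the Kcnd3 window, and neither Kcnc2 window held it. Of 33469 rat windows of the same length, 33.1% held at least 1. The windows of Kcnq5, Kcnc1, Kcna2 and Kcnd3 held 26, 36, 40 and 48 CpG dinucleotides, against a median of 7 over all windows, while those of Kcnc2 held 5 and 6. None of the 6 windows held a TATA box (TATAAA on either strand, in 14.2% of all windows) or a full cyclic AMP response element (TGACGTCA, in 1.83%). Among the genes with a window, those with higher and with lower means in ELS were not parted by these letters. Kcnq3 and Kcna1, both lower in mean, had no window, so the lower side rested on Kcna2 and Kcnd3 alone. Kcnc1, higher in mean, and Kcna2, lower in mean, both had several GC boxes, and Kcnc2, with the same direction as Kcnc1, had none.

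Kcnq3, which encodes a subunit of M-channels, had the widest difference of the 7 genes. It was at 2.93, 10.1, 1.49, 1.82 and 2.49 RPKM in ELS replicates 1 to 5, against 10.3, 8.87, 5.98, 7.47 and 10.7 RPKM in control replicates 1 to 5. ELS replicate 2 lay inside the control range, and the other ELS libraries lay below the lowest control library. These levels rested on 86 to 549 reads per ELS library and 341 to 605 reads per control library, in a gene model of 2873 bases (ENSRNOG00000005206). The log2 fold change was -1.51 ± 0.44 (SE) with all 10 libraries and -1.95 ± 0.23 without ELS replicate 2.

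Kcnq5, the other Kv7 subunit gene described, lay on the opposite side. It was at 28.7, 26.2, 27.4, 30.5 and 29.2 RPKM in ELS replicates 1 to 5 and at 24.7, 22.4, 23.4, 23.3 and 24.7 RPKM in control replicates 1 to 5. All ELS libraries, replicate 2 included, were above all control libraries. Each value rested on 3024 to 4171 reads, in a gene model of 6519 bases (ENSRNOG00000013781). The log2 fold change was 0.26 ± 0.05 (SE), a ratio of means of 1.20, and it was 0.29 ± 0.05 without ELS replicate 2 and 0.25 ± 0.05 without control replicate 4. Excitatory neuron markers, of which 8 of 10 had a higher mean in ELS, summed to 2081 RPKM in ELS replicate 2, the lowest ELS library, against 1911 to 2045 RPKM in control replicates 1, 2, 3 and 5 and 2162 RPKM in control replicate 4. The part of neuron content in the Kcnq5 values was not tested.

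The balance between the Kv7 genes therefore differed within libraries. The ratio of Kcnq3 to Kcnq5 was 0.102, 0.387, 0.0543, 0.0598 and 0.0855 in ELS replicates 1 to 5 and 0.416, 0.397, 0.256, 0.321 and 0.434 in control replicates 1 to 5. ELS replicate 2 lay inside the control range of this ratio, and the other ELS libraries lay below it. The ratio of Kcnq5 to Kcnd3 was 2.84, 2.197, 2.69, 2.70 and 2.92 in ELS replicates 1 to 5, against 1.92 to 2.35 in control libraries, with ELS replicate 2 again in the control range and the other ELS libraries above it. In the ratios within Kv1 and within Kv3, every ELS library lay inside the control range. The ratio of Kcna1 to Kcna2 was 0.657 to 0.964 in ELS and 0.567 to 1.28 in control libraries. Without control replicate 4, the highest, its control range was 0.567 to 0.781. ELS replicates 1 and 4, at 0.964 and 0.817, lay above that narrower range. The ratio of Kcnc1 to Kcnc2 was 0.803 to 1.01 in ELS and 0.778 to 1.26 in control libraries. Without control replicate 4 its control range was 0.778 to 1.03, and every ELS library stayed inside it.

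**Figure D2:**
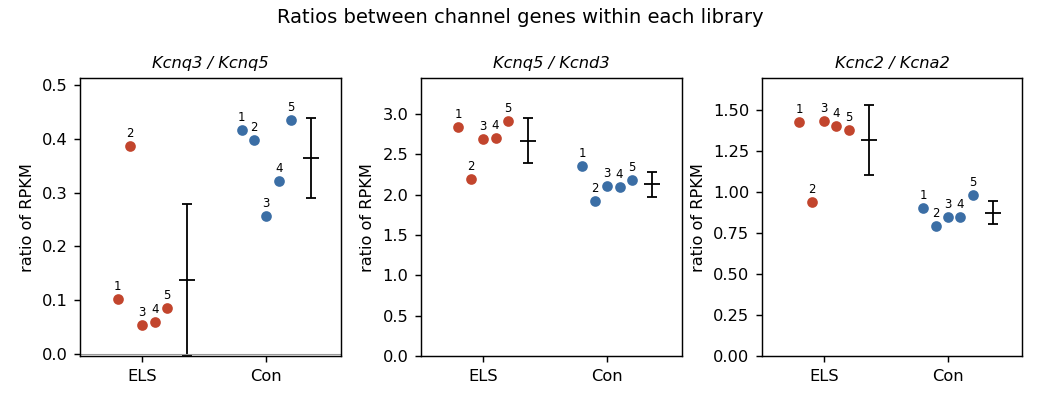
Ratio of RPKM values (vertical axes) between pairs of channel genes within each of the 5 ELS and 5 control (Con) libraries; points are libraries with their number, dashes and bars are mean ± SD. ELS replicate 2 lies in the control range of each of the 3 ratios, while the other ELS libraries lie outside it on one side. These 3 ratios are shown because those libraries lie apart in them, which they do not in the ratios within Kv1 and within Kv3.

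The Kv1 genes described form channels of axons and of the juxtaparanode beside the node of Ranvier. Kcna2 was at 19.1, 27.4, 18.4, 19.6 and 20.03 RPKM in ELS replicates 1 to 5 and at 26.4, 27.1, 22.5, 16.9 and 29.3 RPKM in control replicates 1 to 5. ELS replicate 2 was at the level of the higher control libraries, and control replicate 4 was below all ELS libraries, so the groups overlapped through 1 library on each side. The log2 fold change of Kcna2 was -0.22 ± 0.16 (SE) with all libraries, -0.32 ± 0.14 with ELS replicate 2 left out, -0.34 ± 0.12 with control replicate 4 left out and -0.44 ± 0.08 with neither of them. Kcna1 was at 18.4, 18.0, 13.3, 16.0 and 14.4 RPKM in ELS replicates 1 to 5 and at 18.7, 21.2, 12.7, 21.6 and 22.2 RPKM in control replicates 1 to 5. Control replicate 3 had the lowest level of all 10 libraries, and the other control libraries were above every ELS library. For Kcna1 the log2 fold change was -0.25 ± 0.16 (SE), and it was -0.39 without control replicate 3.

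Markers of myelinating cells were, like Kcna1 and Kcna2, lower in mean in ELS. All 12 mature oligodendrocyte markers had lower means in ELS, with a summed level of 879.7 to 1149 RPKM in ELS and 1171 to 2383 RPKM in control libraries, and none was at 0 in any library. The highest sum belonged to control replicate 4, which had the lowest Kcna2 level and a Kcna1 level of 21.6 RPKM. The part of myelinated tissue in the Kcna1 and Kcna2 values was not tested.

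The Kv3 genes described encode the fast channels that parvalbumin interneurons use for brief spikes, and both had higher means in ELS. Kcnc2 was at 27.3, 25.7, 26.4, 27.5 and 27.7 RPKM in ELS replicates 1 to 5, a narrow range, and at 23.9, 21.6, 19.0, 14.4 and 28.8 RPKM in control replicates 1 to 5. Control replicate 5 lay above the ELS range and the other control libraries lay below it. For Kcnc2 the log2 fold change was 0.36 ± 0.15 (SE), and without control replicate 4 it was 0.22 ± 0.10. Kcnc1 was at 22.9, 20.6, 26.7, 22.8 and 23.6 RPKM in ELS replicates 1 to 5 and at 19.1, 22.2, 17.1, 18.2 and 22.4 RPKM in control replicates 1 to 5. ELS replicate 2 was below control replicates 2 and 5, and the other ELS libraries were above every control library. The log2 fold change of Kcnc1 was 0.24 ± 0.09 (SE).

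Of the 6 parvalbumin interneuron markers, 4 had higher and 2 had lower means in ELS. Their summed level was 81.3 to 112.0 RPKM in ELS and 57.8 to 101.7 RPKM in control libraries, lowest in control replicate 4, and none was at 0. The lower ones were Erbb4, at 0.749 ± 0.796 RPKM in ELS and 2.22 ± 1.12 RPKM in controls, and Tac1, at 7.70 ± 0.679 RPKM in ELS and 10.6 ± 5.71 RPKM in controls, while Pvalb was at 68.8 ± 11.2 RPKM in ELS and 53.6 ± 11.4 RPKM in controls (SD, n = 5). These markers were chosen for mention after their values were seen. Over all 9 interneuron markers found, the sum was 582.1 to 639.0 RPKM in ELS libraries and 535.3 to 620.6 RPKM in control replicates 1, 2, 3 and 5, but 283.7 RPKM in control replicate 4, the library with the lowest Kcnc2 level. In that library Cck was at 83.6 RPKM and Sst at 61.8 RPKM. The other control libraries had 209.0 to 241.3 RPKM of Cck and 136.3 to 161.2 RPKM of Sst. Gad1, Gad2 and Slc32a1 were at 37.3, 32.3 and 16.1 RPKM in control replicate 4, near control replicate 3 (37.7, 29.5 and 16.7 RPKM). Pvalb, Vip, Lhx6 and Dlx1 were at 39.4, 5.75, 1.75 and 5.71 RPKM in control replicate 4. The other control libraries had 49.9 to 70.8, 13.5 to 19.0, 2.00 to 2.76 and 8.04 to 14.2 RPKM of them. Every interneuron marker found but Gad2 was thus lowest of the control libraries in replicate 4, by differing margins. The part of interneuron content in the Kv3 values was not tested.

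Kcnd3, a pore subunit of the A-type current, was the gene with the smallest difference. It was at 10.1, 11.9, 10.2, 11.3 and 9.998 RPKM in ELS replicates 1 to 5 and at 10.5, 11.6, 11.1, 11.1 and 11.3 RPKM in control replicates 1 to 5. ELS replicates 1, 3 and 5 were below all control libraries and ELS replicate 2 was above them. The log2 fold change was -0.06 ± 0.06 (SE).

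Set side by side, the Kv7 and the Kv1 to Kv4 genes did not form opposing blocks. The mean log2 fold change was -0.63 over Kcnq3 and Kcnq5 and 0.01 over the 5 Kv1 to Kv4 genes, a difference of -0.64. The Kv7 mean stood for neither of its genes, since one was at -1.51 and the other at 0.26. In summed level the Kv7 pair was at 32.2 ± 2.68 RPKM in ELS and 32.4 ± 2.69 RPKM in controls, and the 5 Kv1 to Kv4 genes at 97.9 ± 3.41 RPKM in ELS and 96.2 ± 13.8 RPKM in controls (SD, n = 5). Per library, the mean centred log2 level of the Kv7 genes minus that of the Kv1 to Kv4 genes was -0.31, 0.41, -0.74, -0.59 and -0.36 in ELS replicates 1 to 5 and 0.45, 0.19, 0.27, 0.41 and 0.28 in control replicates 1 to 5. Over the 7 genes, 3 had higher and 4 had lower means in ELS, where 50.6% of all genes tested had a higher mean. All ELS libraries were above all control libraries in 1 gene, Kcnq5, as in 3.08% of all genes, and below them in 0, as in 2.6% of all genes. Since the genes were chosen with these values known, the counts are a description only.

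The profiles of the 7 genes over the 10 libraries were compared with each other. Likeness was measured as the root mean square (RMS) difference of centred log2 values, which is 0 for identical profiles. The Kcnq5 profile was nearest to that of Kcnc1 (0.15), Kcnc2 was nearest to Kcnc1 of its own subfamily (0.21), and Kcna1 and Kcna2 were each nearest to Kcnd3 (0.25 and 0.23). Kcnd3, the gene with the smallest group difference, was itself nearest to Kcnq5 (0.20). The median distance from Kcnd3 of genes with a mean of at least 5 RPKM was 0.15. The distances of the Kv1 genes from Kcnd3 therefore do not show a likeness of Kv1 with Kv4. The same median was 0.17 from Kcnq5, 0.21 from Kcnc1 and 0.31 from Kcnc2. The distance between Kcnc1 and Kcnc2 was thus at the median seen from Kcnc1 and below it seen from Kcnc2. It does not by itself show a likeness within Kv3. The distance of Kcnq5 from Kcnc1 was little below the Kcnq5 median. The difference of Kcnq5 from Kcnq3 was 1.15. Pairs with Kcnq3 lay at 0.85 to 1.17 and pairs without it at 0.15 to 0.44. All these profiles share the same libraries, and the measure is dominated by genes with wide differences.

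**Figure D3:**
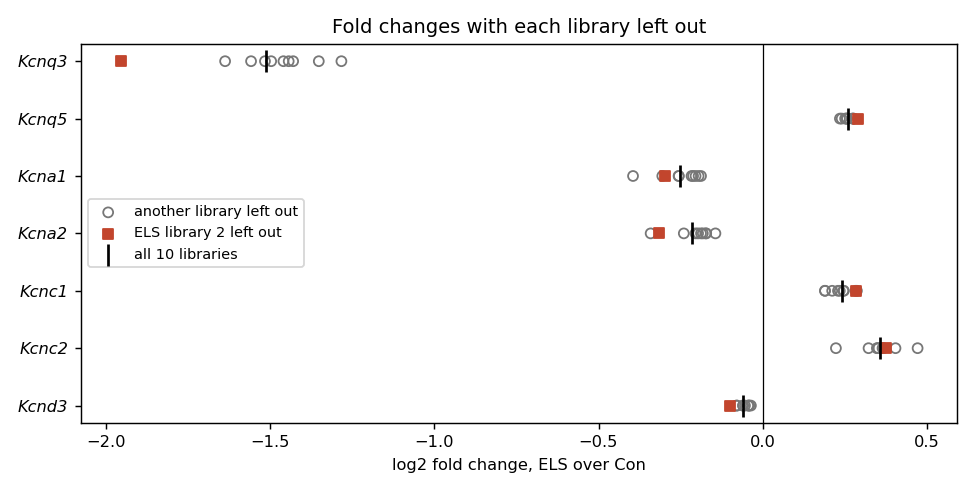
Log2 fold change of ELS over control (horizontal axis) for each of the 7 channel genes with all 10 libraries (vertical tick), without ELS library 2 (square) and with each other library left out (open circles). No gene changes side, and Kcnq3 ranges from -1.95 without ELS library 2 to -1.28.

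The genes nearest to each profile were taken from 8800 other genes with a mean of at least 5 RPKM, over the 10 libraries. For Kcnq3 they were Grin2a, an NMDA receptor subunit gene, with an RMS difference of 0.19, and Tnr, which encodes the matrix protein tenascin-R, with 0.20. The median of all genes from Kcnq3 was 1.06. Grin2a was at 2.86, 9.27, 1.61, 2.33 and 2.17 RPKM in ELS replicates 1 to 5 and at 4.81 to 12.5 RPKM in control libraries, and Tnr had 15.1 RPKM in ELS replicate 2 and 1.96 to 4.81 RPKM in the other ELS libraries, against 9.78 to 14.9 RPKM in control libraries. As another example with ELS replicate 2 in the control range, Slc1a2, the astrocytic glutamate transporter gene, was at 35.9, 231.5, 14.2, 13.6 and 29.3 RPKM in ELS replicates 1 to 5 and at 127.7 to 275.7 RPKM in control libraries.

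For Kcnq5 the nearest genes were Pja2, a ubiquitin ligase gene, and the synaptic vesicle gene Syn2, both with an RMS difference of 0.04. Kcna2 was nearest to Nf1, which encodes the Ras regulator neurofibromin (0.08), and Ptprd, a synaptic receptor phosphatase gene (0.09). Kcna1 was nearest to the phosphate exporter gene Xpr1 (0.13) and the lipid kinase gene Pikfyve (0.14). Kcnc1 was nearest to the transcription factor gene Nfic and to Syt12, a synaptotagmin gene (both 0.07), and Kcnc2 to Ppp1r26 and the transcription factor gene Foxp1 (both 0.08). Kcnd3 was nearest to Nudt21, an mRNA cleavage factor gene, and Txndc16 (both 0.05).

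In the wider family, 34 of 40 listed pore-forming Kv genes were in the table, and the summed level of these was 433.1 to 457.4 RPKM in ELS and 366.7 to 456.2 RPKM in control libraries. The 7 genes described made up 27.4% to 31.7% of this sum in ELS and 29.6% to 32.8% in control libraries. Kv1 genes held 12.5% to 16.7% in ELS and 15.7% to 18.3% in control libraries. ELS replicates 1, 3, 4 and 5, at 12.5% to 15.0%, lay below every control library, and ELS replicate 2 lay inside the control range. The Kv3 share was 19.3% to 21.9% in ELS and 19.1% to 23.5% in control libraries. Without control replicate 4, the highest, its control range was 19.1% to 19.5%. ELS replicate 2, at 19.3%, lay inside that narrower range, and ELS replicates 1, 3, 4 and 5 lay above it.

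The other 27 pore-forming Kv genes, all tested, had a median log2 fold change of 0.08, against 0.00 over all genes tested, with 18 higher and 9 lower means. None passed an adjusted p of 0.05 by limma or by limma-voom on recovered reads, as was the case for all 14642 genes. At an unadjusted p under 0.05 there were 3 higher and 1 lower by limma, and 5 in all by limma-voom, where 10.1% of all genes were higher and 10.3% lower by limma. The 3 higher genes were Kcnh3, Kcns3 and Kcnv1. Kcnh3, a channel gene of the ether-a-go-go family, was at 43.0 ± 1.82 RPKM in ELS and 34.9 ± 6.91 RPKM in controls (log2 fold change 0.33 ± 0.14, SE; limma, adjusted p = 0.214). Kcns3 and Kcnv1 encode silent subunits that alter other Kv channels, with Kcns3 at 4.32 ± 0.516 RPKM in ELS and 3.62 ± 0.419 RPKM in controls, and Kcnv1 at 20.2 ± 1.81 RPKM in ELS and 14.2 ± 4.92 RPKM in controls (adjusted p = 0.216 and 0.227). Control replicate 4 was the lowest library for Kcnh3 and Kcnv1, and without it their log2 fold changes were 0.18 and 0.33, against 0.33 and 0.60 with it. The lower gene was Kcna3, at 2.82, 4.41, 0.824, 1.35 and 1.497 RPKM in ELS replicates 1 to 5 and 2.35 to 4.27 RPKM in control libraries (log2 fold change -0.90 ± 0.38, SE; adjusted p = 0.226). Kcna3 is the neighbour of Kcna2 on chromosome 2 in the RefSeq annotation, and ELS replicate 2 was the highest ELS library in both. Without ELS replicate 2 and control replicate 4 together, 4 of the 27 genes passed an adjusted p of 0.05, as did 7.62% of all genes. They were Kcnh3 and Kcnv1, higher, and Kcna3 and Kcng3, lower, and Kcng3 is named here after its values were seen. The libraries were left out for their values in these data, so the count passing without them is a description.

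**Figure D4:**
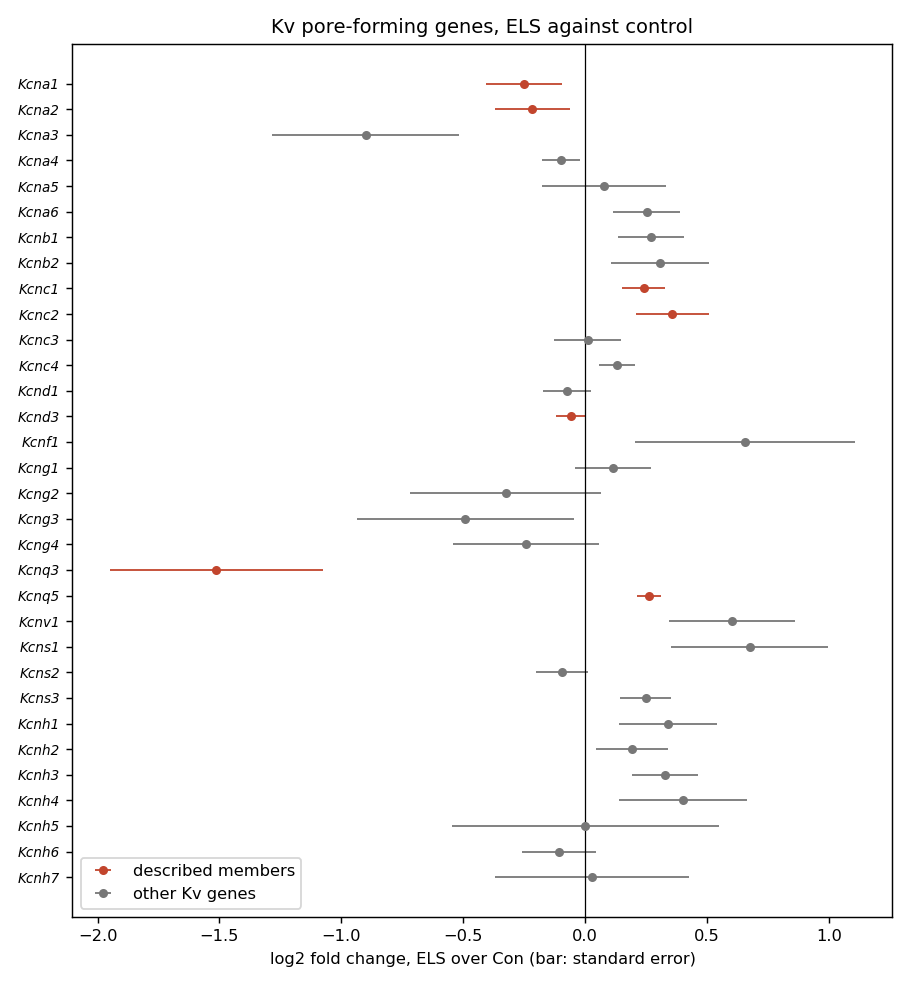
Log2 fold change of ELS over control (horizontal axis) with its standard error for the 7 described genes, in red, and for other Kv pore-forming genes, in grey. Kcnq3 lies at -1.51 ± 0.44 and Kcnq5 at 0.26 ± 0.05.

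Auxiliary subunits change the surface number and gating of Kv4 and Kv1 channels. Of 13 measured genes, 10 had higher and 3 lower means in ELS (median 0.04), 0 passed when adjusted over all genes by limma or limma-voom, and at an unadjusted p under 0.05 there were 2, both higher, by limma and 2 in all by limma-voom, where 20.4% and 20.9% of all genes were at that threshold. Those by limma were Kcnip4, a calcium-binding partner of Kv4 subunits such as KCND3, at 32.0 ± 2.19 RPKM in ELS and 25.6 ± 3.56 RPKM in controls (log2 fold change 0.33 ± 0.10, SE; limma, adjusted p = 0.135), and Amigo1, a partner of Kv2 subunits, at 23.0 ± 1.79 and 20.5 ± 1.09 RPKM in ELS and controls (adjusted p = 0.184). The most abundant were Kcnab2, the beta subunit gene of Kv1 channels, at 90.2 ± 5.88 RPKM in ELS and 91.7 ± 31.1 RPKM in controls, and Dpp6, a partner of Kv4 subunits, at 53.8 ± 4.07 RPKM in ELS and 56.5 ± 9.18 RPKM in controls. Kcnip3 was at 34.4 ± 3.63 RPKM in ELS and 33.6 ± 7.93 RPKM in controls. Control replicate 4 had the highest Kcnab2 level, 146.7 RPKM, and the Kcnab2 log2 fold change was 0.03 with that library and 0.21 without it. Dpp6 was at -0.06 with it and 0.03 without it, and Kcnip3 at 0.07 with it and -0.08 without it. Without control replicate 4 and ELS replicate 2, Kcnab2, Kcnip4 and Amigo1 were higher at an adjusted p of 0.0173 to 0.0474 by limma, where 7.62% of all genes passed. Both libraries were left out for their values in these data, so these p values are a description.

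Partners that cluster Kv1 at the juxtaparanode or Kv7 at the axon initial segment had 9 higher and 4 lower means among 13 genes (median 0.03), again with 0 past the adjusted threshold by limma and limma-voom. At an unadjusted p under 0.05 there were 1 higher and 3 lower by limma, and 4 in all by limma-voom, where 10.1% of all genes were higher and 10.3% lower by limma. Without control replicate 4 and ELS replicate 2, Dlg4 and Lgi1, higher, and Adam22, lower, passed an adjusted p of 0.05, as did 7.62% of all genes. Since those libraries were left out for their values in these data, adjusted p values without either are a description. The lower ones with all libraries were Adam22, Cntnap2 and Ank3. Adam22, a gene of the Kv1 complex of axons, was at 13.0, 20.95, 3.50, 5.91 and 9.66 RPKM in ELS replicates 1 to 5 and 13.4 to 24.1 RPKM in control libraries (log2 fold change -1.11 ± 0.41, SE; adjusted p = 0.183). Cntnap2, whose protein holds Kv1 channels at the juxtaparanode, was at 8.60, 10.2, 4.61, 6.40 and 6.74 RPKM in ELS replicates 1 to 5 and 7.84 to 11.9 RPKM in control libraries (-0.46 ± 0.20, SE; adjusted p = 0.230). ELS replicate 2 was the highest ELS library in both genes, as it was in Kcnq3 and Kcna2. Ank3, the ankyrin-G gene whose protein holds Kv7 channels at the axon initial segment, was at 21.6 ± 1.40 RPKM in ELS and 24.6 ± 2.02 RPKM in controls (-0.19 ± 0.07, SE; adjusted p = 0.172). The higher one was Dlg4, the scaffold gene PSD-95, at 196.3 ± 8.77 RPKM in ELS and 177.8 ± 6.64 RPKM in controls (0.14 ± 0.04, SE; adjusted p = 0.138, and 0.0445 without ELS replicate 2), while Dlg2 had a log2 fold change of 0.04. Lgi1, the gene of a secreted ligand of ADAM22, was at 33.6 to 39.6 RPKM in ELS libraries, 32.2 to 35.3 RPKM in control replicates 1, 2, 3 and 5 and 53.8 RPKM in control replicate 4. Its log2 fold change was 0.01 with all libraries, 0.14 without control replicate 4 and 0.18 without that library and ELS replicate 2 (limma, adjusted p = 0.0329).

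The Kv7 regulators, from Gq-coupled muscarinic receptors to PIP2 synthesis and calmodulin, had 13 higher and 3 lower means among 16 tested rows (median 0.10). None passed when adjusted over all genes by limma or limma-voom, and at an unadjusted p under 0.05 there were 6 higher and 0 lower by limma and 6 by limma-voom, where 10.1% of all genes were higher and 10.3% lower by limma. By limma-voom with sample quality weights, 5 rows, all higher, passed an adjusted p of 0.05, as did 7.18% of all genes. Chrm3, a muscarinic receptor gene, was at 17.5 ± 1.70 RPKM in ELS and 14.2 ± 0.545 RPKM in controls (log2 fold change 0.29 ± 0.07, SE; limma, adjusted p = 0.133). Its relative Chrm1 was at 57.1 ± 4.51 RPKM in ELS and 49.2 ± 1.89 RPKM in controls (0.21 ± 0.06, SE; adjusted p = 0.133). Pi4ka and Pip5k1a encode kinases that act in turn to make PIP2. Pi4ka was at 49.98 ± 3.70 RPKM in ELS and 42.2 ± 2.27 RPKM in controls, with every ELS library above every control library, and Pip5k1a was at 24.9 ± 1.55 RPKM in ELS and 21.9 ± 1.26 RPKM in controls. Calmodulin, a constitutive partner of Kv7 subunits, is made from several genes, and Calm3 was at 1188 ± 34.1 RPKM in ELS and 1029.5 ± 92.5 RPKM in controls. Of 2 rows with the symbol Calm2, one was at 835.8 and 789.0 RPKM and the other at 396.9 and 353.3 RPKM in ELS and controls, and reads may be shared between such copies. Without ELS replicate 2, 4 genes of this list, Chrm1, Chrm3, Pi4ka and Pip5k1a, were higher at an adjusted p of 0.0197 to 0.0434 by limma, where 3.03% of all genes passed. With all libraries their adjusted p was 0.133 to 0.140 by limma. ELS replicate 2 was left out for its values in these data and was the lowest ELS library in all 4 genes. The p values without it are therefore a description. The list was drawn up with the Chrm3 value in these libraries known, so its count is not independent evidence.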

How the data were processed

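RNA was measured in prefrontal cortex of 5 ELS and 5 control rats, 1 stranded mRNA library each per the labels' protocols. Tools named in the submitters' processing notes are STAR and featureCounts, with build rn6. The sources used here give no versions, annotation release or strand setting, so reads of overlapping or antisense genes could be shared. The authors deposited 1 table of 16041 Ensembl genes in RPKM, which scales reads by gene length and library total; whether they called it RPKM or FPKM is not stated. Whole reads, model lengths and totals were recovered from the steps of the values for all 16015 genes above 0, with a tolerance of 0.002 reads.

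The 14642 genes that reached 0.5 RPKM in any 5 libraries were tested. Their log2(RPKM + 0.1) values were fitted by limma 3.58.1 in R 4.3.3, with trended and robust empirical Bayes variances, two-sided tests, Benjamini-Hochberg adjusted p over all genes tested and a threshold of 0.05. The median SE of a log2 fold change was 0.0976. Alternatives were the pseudocount, the filter, the scaling, limma-voom on recovered reads, a replicate block and libraries left out. Among the 10 libraries, same-numbered ones were not taken as pairs.

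The members and all gene lists were chosen with earlier results of these data known. Genes named beyond the members were, per list, those at an unadjusted p under 0.05 (at most 6) and the 3 of highest mean, the 2 nearest profiles of each member, and Slc1a2. Some genes these rules name are not reported here, but they are in the counts and sums of their list. The Kv1 to Kv4 comparison was planned over 6 genes and run over 5, since Kcnd2 is not analysed here. Sequences are from RefSeq, build GRCr8.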

Additional observations from a re-analysis of the deposited data

Results flagged for a closer look

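In Kcnq3, ELS replicate 2 stood far from its group, at 10.1 RPKM against 1.49 to 2.93 RPKM in the other ELS libraries. In Kcna2 the same library was at 27.4 RPKM against 18.4 to 20.03 RPKM in the other ELS libraries. In both the gap to the nearest library was over 0.71 of the group's range, a size used here only to mark a library for a closer look. The genes were chosen by these same values, so no test and no chance rate applies.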

How the results depend on the processing

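The log2 fold changes of the 7 channel genes and the Kv7 minus Kv1 to Kv4 difference kept their sign under all 20 alternatives, and the difference ranged from -0.82 to -0.50. Kcnq3 ranged from -1.9995 to -1.23 and Kcnq5 from 0.23 to 0.29. Kcnc2 was at 0.22 without control replicate 4. The count of all genes past the adjusted threshold was 0 with all libraries, 0 to 444 with 1 library left out (444 without ELS replicate 2), 1051 by limma-voom with sample quality weights and 1116 without control replicate 4 and ELS replicate 2 together. The count of other Kv pore-forming genes at an unadjusted p under 0.05 was 4 with all libraries. It was 0 to 8 with 1 library left out: 2 without control replicate 3 or ELS replicate 1, 8 without control replicate 4, and 0 without ELS replicate 3, 4 or 5. It was 7 with sample quality weights and 10 without both libraries. The cause was not tested. For the auxiliary list, whose alternatives were added after seeing the data, the count of 2 was 1 with the replicate block or without control replicate 3 or ELS replicate 3 or 4, and 5 without control replicate 4 or both libraries. For the clustering partners, likewise added, the count of 4 was 9 without both libraries. With sample quality weights, 1 other Kv pore-forming gene, 1 auxiliary gene, 1 clustering partner and 5 Kv7 regulator rows passed an adjusted p of 0.05. Of all genes, 7.18% did in that fit. The weights were set from these same data, with control replicate 4 at 0.174.

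Same-numbered ELS and control libraries had correlations of deviations of -0.08 to 0.07, and 3 of 10 libraries were closest to their own number, so the numbers were not taken as pairs. With the replicate block, 0 genes passed the adjusted threshold, 3 other Kv pore-forming genes had an unadjusted p under 0.05, and the Kv7 minus Kv1 to Kv4 difference was -0.64. Kcnq3 rested on the fewest reads of the 7 genes, 86 in ELS replicate 3.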

Other observations

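The ratio of Kcnc2 to Kcna2, chosen after the data were seen, was 1.43, 0.939, 1.44, 1.41 and 1.38 in ELS replicates 1 to 5 and 0.906, 0.796, 0.847, 0.850 and 0.982 in control replicates 1 to 5. ELS replicate 2 lay in the control range, and the other ELS libraries lay above it within a narrow band. Control replicate 4, which was low in both genes, had a ratio like that of the other control libraries.

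Kcnf1, which encodes a silent Kv subunit, was at 31.1 to 36.7 RPKM in ELS libraries and at 26.1 to 33.6 RPKM in control replicates 1, 2, 3 and 5, but at 5.11 RPKM in control replicate 4. Its log2 fold change was 0.66 ± 0.45 (SE; limma, adjusted p = 0.433) with that library and 0.15 without it. Kcng2, another silent subunit gene, was at 2.59 to 3.47 RPKM in ELS libraries and 2.42 to 3.38 RPKM in control replicates 1, 2, 3 and 5, and at 13.1 RPKM in control replicate 4. Kcna6, which neighbours Kcna1 on chromosome 4 in the RefSeq annotation, was at 16.6 to 18.3 RPKM in ELS libraries, 15.6 to 16.7 RPKM in control replicates 1, 2, 3 and 5 and 9.55 RPKM in control replicate 4. Its log2 fold change was 0.25 with that library and 0.10 without it, where Kcna1 was at -0.25 and -0.20. Pip5k1c, a PIP2 kinase gene, had 56.9 RPKM in ELS replicate 4, against 101.6 to 111.0 RPKM in the other ELS libraries and 85.8 to 97.8 RPKM in control libraries. Kcng2, Kcna6 and Pip5k1c are named here after their values were seen.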
